A study of Homo sapiens with 4 samples.

Results

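The nuclear-encoded respiratory chain subunits were taken by name from the deposited gene table: every symbol beginning with NDUF and one of the letters A, B, C, S or V before a number, every symbol beginning with UQCR or ATP5, the symbols COX4 to COX8 with their isoforms, the 4 succinate dehydrogenase genes SDHA to SDHD, and CYC1. No measured value entered this choice. The rule took 89 of the 19314 genes listed, and 88 of them had a value above 0 in at least 1 library. The exception was COX8C, a testis isoform, which was listed without a value. PTPRN is a receptor-type member of the protein tyrosine phosphatase family, and the study describes its phosphatase domain as inactive. The study asked how knockdown of PTPRN changed the transcriptome of U87, an established human glioblastoma cell line. It compared 2 libraries of cells carrying a short hairpin RNA against PTPRN (PTP2) with 2 libraries of cells carrying a scrambled hairpin (SCR). A single hairpin was sequenced, all libraries came from 1 line, and nothing in the sources says that the 2 libraries of a group were grown separately, so p-values measure the spread between these libraries only. Levels are given as FPKM, fragments scaled to transcript length and to the mapped reads of the library, and fold changes as differences of log2(FPKM + 1), PTP2 minus SCR.

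The respiratory chain of the inner mitochondrial membrane carries electrons from NADH through complex I, or from succinate through complex II, to ubiquinone, then through complex III and cytochrome c to complex IV, where oxygen is reduced. Complexes I, III and IV pump protons, and complex V, the ATP synthase, uses the returning protons to make ATP. Most subunits are encoded in the nucleus and a few core subunits of complexes I, III, IV and V in mitochondrial DNA, so the complexes need both genomes, and complex II alone is wholly nuclear. In glioma the balance between this pathway and glycolysis has long been studied.

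PTPRN itself stood at 12.1 and 11.7 FPKM in the PTP2 libraries and at 84.8 and 85.02 FPKM in the SCR libraries, a log2 fold change of -2.74 (limma, adjusted p = 0.000148). Depth was estimated at 18000000 to 19400000 reads per library. Of the glial and astrocytic markers, VIM, CD44 and NES passed 10 FPKM in some library, while GFAP did not pass 0.55 FPKM and SOX2 not 0.27 FPKM. VIM stood at 4766 and 4565 FPKM in PTP2 and 1998 and 1918 FPKM in SCR. The 7 markers with a value summed to 4883 to 5087 FPKM in PTP2 and 2085 to 2164 FPKM in SCR, and most of each sum was VIM. CD44 was also higher, at 316 and 314 FPKM in PTP2 and 152 FPKM in both SCR libraries. NES went the other way, at 3.12 and 3.39 FPKM in PTP2 and 13.0 and 14.2 FPKM in SCR. At low level, OLIG2 was higher in PTP2, and GFAP and SOX2 were lower. The growth protocol in the labels names an endothelial line, but 0 of 9 endothelial, 0 of 6 myeloid and 0 of 6 epithelial markers with a value reached 10 FPKM in any library. Their sums were 3.98 to 4.42 against 4.66 FPKM for endothelial, 5.19 to 6.04 against 6.73 to 7 FPKM for myeloid, and 3 to 3.29 against 9.98 to 10.3 FPKM for epithelial markers, PTP2 first. CDKN2A, which is deleted in U87, reached no more than 0.05 FPKM. The part of these marker differences in the results was not tested.

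Most respiratory chain subunits were higher in the knockdown, by small amounts. Of the 88 members with a value, 60 rose, 6 fell and 22 did not pass an adjusted p of 0.05 (limma), where 30.8% of the 16595 genes tested were called higher and 27.1% lower, or 57.9% in either direction. Their median log2 fold change was 0.31, against 0.01 over all genes tested. The rise was below 1.5-fold for 41 of the 60 and at least 1.5-fold for 19. The thresholds of the study, a change of at least 2-fold with an adjusted p no higher than 0.001, were passed upward by COX7B, COX5A, ATP5F1 and CYC1 and downward by 0 members, and by 2.63% and 4.06% of all genes. The 2 PTP2 libraries lay above both SCR libraries for 65 members and below both for 7, against 39.7% and 35.8% of all genes. Leaving out PTP2 replicate 1, PTP2 replicate 2, SCR replicate 1 or SCR replicate 2 left 35, 39, 38 and 36 members called higher and 1, 1, 2 and 2 called lower, and 28 members were called higher in each of these 4 fits.

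Respiratory chain genes are abundant, and abundant genes were called more often in both directions. Of the 6257 genes with a mean of at least 10 FPKM, 47.1% were called higher and 31.7% lower, with a median log2 fold change of 0.11. Of the 77 members at that level 59 rose and 5 fell, with a median of 0.37. In bulk RNA, a smaller share of cells that express a gene and a lower level in each cell cannot be told apart.

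**Figure D1:**
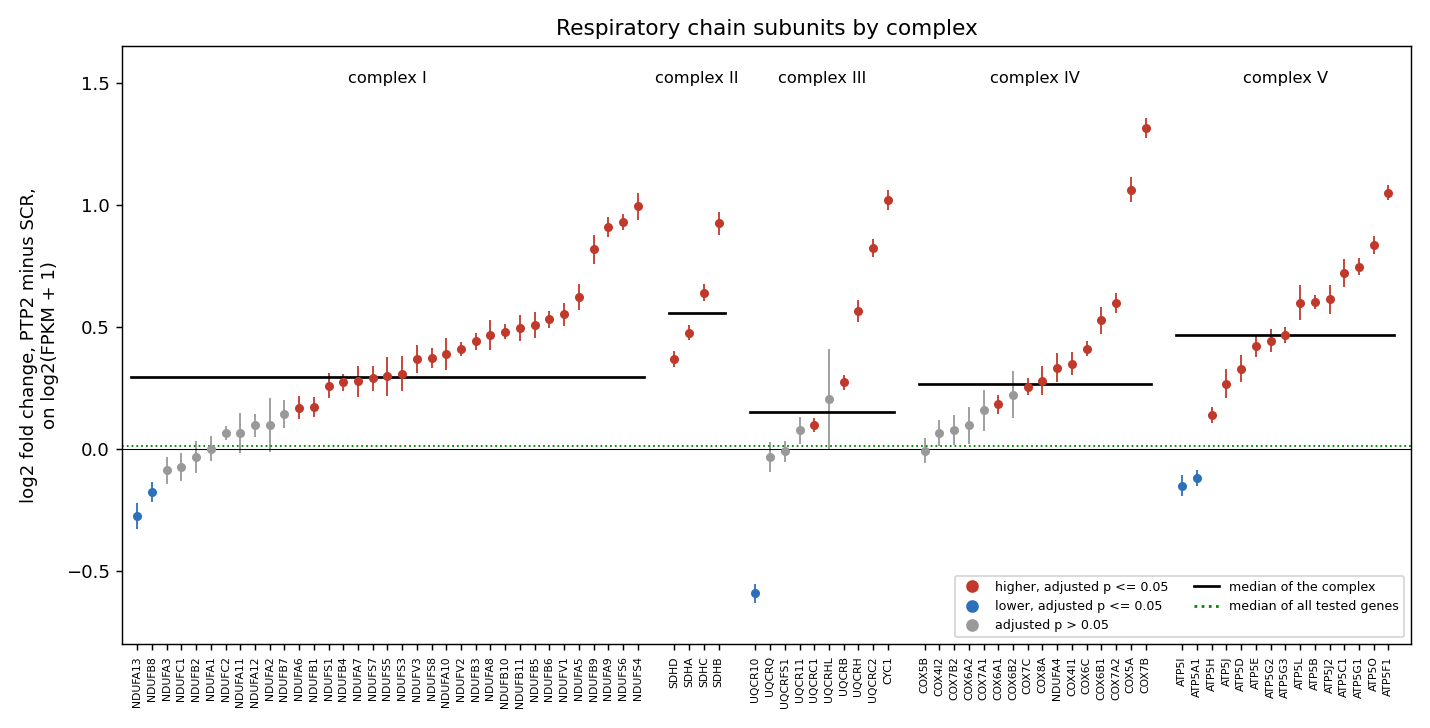
Log2 fold change of the tested subunits of complexes I to V, with 1 subunit of complex I not shown, PTP2 minus SCR, on the log2(FPKM + 1) scale, with points for genes, bars for the standard error of the limma fit, black lines for the median of each complex and a dotted line for the median of all tested genes. The 4 subunits of complex II all lie above 0.3, while complex III spans the widest range, from UQCR10 at -0.59 to CYC1 at 1.02.

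Short stretches of genomic sequence before the start site are given for subunits that moved apart, because 3 transcription factors, nuclear respiratory factor 1 (NRF1), the ETS family factor GABP and YY1, are known to act on respiratory chain promoters. RefSeq (GRCh38.p14) gave a window of 250 bases before to 50 bases after the start for 69 members and 13258 tested genes. In it the letters GCGCATGC (NRF1), CCGGAAG (ETS) and AAGATGGC (YY1) were searched on both strands. No motif contains the letters of another, and the start is RefSeq's, which can differ from the gene boundary in the deposited table. Sequences run 5′ to 3′ on the strand of the gene, and capitals mark the matches. SDHB, the iron-sulfur subunit of complex II, is the member shown whole for 250 bases, with an NRF1 match 200 bases and an ETS match 128 bases before the start (chr1:17054033-17054282, minus strand). Its window held all 3 motifs, as did a window of ATP5J, which rose by 0.26. The 100 bases before the start follow for NDUFS6 (chr5:1801307-1801406, plus strand), with an NRF1 match 46 bases before the start, for COX7B, the largest rise (chrX:77899368-77899467, plus strand), and for UQCR10, the largest fall (chr22:29767269-29767368, plus strand). No match of the 3 motifs was found in the windows of COX7B and UQCR10.
SDHB: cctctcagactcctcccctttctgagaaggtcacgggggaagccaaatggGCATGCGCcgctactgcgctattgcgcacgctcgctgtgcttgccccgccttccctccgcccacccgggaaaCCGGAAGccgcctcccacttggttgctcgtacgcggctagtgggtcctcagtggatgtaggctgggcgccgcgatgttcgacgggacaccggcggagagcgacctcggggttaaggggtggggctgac
NDUFS6: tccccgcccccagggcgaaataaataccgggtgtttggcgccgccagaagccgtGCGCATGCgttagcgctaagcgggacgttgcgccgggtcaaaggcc
COX7B: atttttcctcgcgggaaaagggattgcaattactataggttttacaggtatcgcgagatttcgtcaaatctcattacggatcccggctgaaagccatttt
UQCR10: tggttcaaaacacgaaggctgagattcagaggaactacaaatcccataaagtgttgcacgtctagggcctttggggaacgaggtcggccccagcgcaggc

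Of the 12 members with YY1 letters in the window, 10 rose, while NDUFB8 was called lower and NDUFA3 was not called. Of all 69 members with a window 48 rose, and of all genes tested 30.8% were called higher. As examples, picked with their values known, 30 bases around the match are given for NDUFS4, ATP5F1 and SDHB, where it lies close to the start. The match begins inside the transcript for NDUFS4, at base 22, and SDHB, at base 11, and 2 bases before the start for ATP5F1. The YY1 letters hold ATG, the letters of a start codon. Whether a match covers the start codon of its gene was not checked. The stretches are chr5:53560649-53560678 (plus strand) for NDUFS4, chr1:111449451-111449480 (plus strand) for ATP5F1, where the match is on the opposite strand, and chr1:17054004-17054033 (minus strand) for SDHB.
NDUFS4: ttgcctgcagcAAGATGGCggcggtgtcaa
ATP5F1: acttgtgagcgGCCATCTTggtcctgccct
SDHB: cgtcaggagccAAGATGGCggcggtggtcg

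Matches were counted in the windows of members and of all genes, with no test. NRF1 letters were in 14 of 69 members (20.3%) and 5.45% of genes, ETS letters in 20 members (28.99%) and 18.8% of genes, and YY1 letters in 12 members (17.4%) and 5.32% of genes. At least 1 motif was in 36 members (52.2%) and 26.5% of genes. Of the 48 members with a window that rose, 12 held NRF1 letters, 12 ETS letters and 10 YY1 letters, and of the other 21 members 2, 8 and 2 did. A match is a description of letters in this window only.

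Complex I, the NADH dehydrogenase, had 25 of 36 members called higher and 2 lower, with a median log2 fold change of 0.29 and a range of -0.28 to 0.99. Leaving out PTP2 replicate 1, PTP2 replicate 2, SCR replicate 1 or SCR replicate 2 left 15, 14, 13 and 12 called higher. The 7 catalytic subunits, which carry the flavin and the iron-sulfur clusters, were all called higher, with a median of 0.31. Of the 29 accessory subunits 18 rose, 2 fell and 9 were not called, with a near median of 0.28. With length and GC trends removed, 4 of the 7 catalytic subunits were called higher and 0 lower. In that fit 16 of the 29 accessory subunits were called higher and 8 lower. Among the catalytic subunits the largest rise was that of NDUFV1, which binds NADH and the flavin, at 119 and 113 FPKM in PTP2 and 80.6 and 76.99 FPKM in SCR (log2 fold change 0.55, SE 0.05, limma adjusted p = 0.00195). The 4 members with the largest rises were accessory subunits.

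NDUFS4, an accessory subunit whose loss causes Leigh syndrome, had 88.3 and 83.8 FPKM in PTP2 and 44.5 and 41.1 FPKM in SCR. Both PTP2 libraries lay well above both SCR libraries, and the log2 fold change was 0.99 (SE 0.06, limma adjusted p = 0.000831). NDUFS6, which sits beside it and binds zinc, had 212 FPKM in both PTP2 libraries and 113 and 109 FPKM in SCR, a log2 fold change of 0.93 (SE 0.03, limma adjusted p = 0.00041). NDUFA9, a subunit of the arm that holds the ubiquinone site, had 50.7 and 48.6 FPKM in PTP2 and 26.5 and 25.5 FPKM in SCR, with a log2 fold change of 0.91 (SE 0.04, limma adjusted p = 0.000537). In each of these 3 genes the groups were far apart relative to the replicates. NDUFB9, of the membrane arm, was the remaining large rise at 0.82.

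The 2 complex I subunits that fell were small in their change. NDUFA13, also known as GRIM-19, had 197 and 186 FPKM in PTP2 and 239 and 225 FPKM in SCR, a log2 fold change of -0.28 (SE 0.05, limma adjusted p = 0.0166). NDUFB8, often used as a protein marker of assembled complex I, had 115 and 112 FPKM in PTP2 and 131 and 125 FPKM in SCR, a log2 fold change of -0.18 (SE 0.04, limma adjusted p = 0.0261). Neither gene overlapped between groups, but neither call held in any fit that left out 1 library. The 9 members not called were NDUFB7, NDUFA2, NDUFA12, NDUFA11, NDUFC2, NDUFA1, NDUFB2, NDUFC1 and NDUFA3, with log2 fold changes between -0.09 and 0.14.

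Complex II, succinate dehydrogenase, links the tricarboxylic acid cycle to the chain, and all 4 of its subunits rose, with a median log2 fold change of 0.56. SDHA, the flavoprotein that oxidises succinate, had 66.1 and 65.1 FPKM in PTP2 and 47.4 and 46.4 FPKM in SCR (log2 fold change 0.48, SE 0.03, limma adjusted p = 0.00105). SDHB had 120 and 112 FPKM in PTP2 and 60.4 and 61.1 FPKM in SCR (0.92, SE 0.05, limma adjusted p = 0.000692). Both soluble subunits were thus above SCR in each PTP2 library. SDHC, a membrane anchor, had 39.7 and 38.6 FPKM in PTP2 and 24.4 and 25.2 FPKM in SCR (0.64, SE 0.04, limma adjusted p = 0.000777). SDHD, the other anchor, had 36.2 and 35.0 FPKM in PTP2 and 27.6 and 27.1 FPKM in SCR (0.37, SE 0.03, limma adjusted p = 0.00241). All 4 genes were called higher in every fit that left out 1 library, SDHD was not called with length and GC trends removed, and their summed level was 262 and 251 FPKM in PTP2 and 160 FPKM in both SCR libraries.

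**Figure D2:**
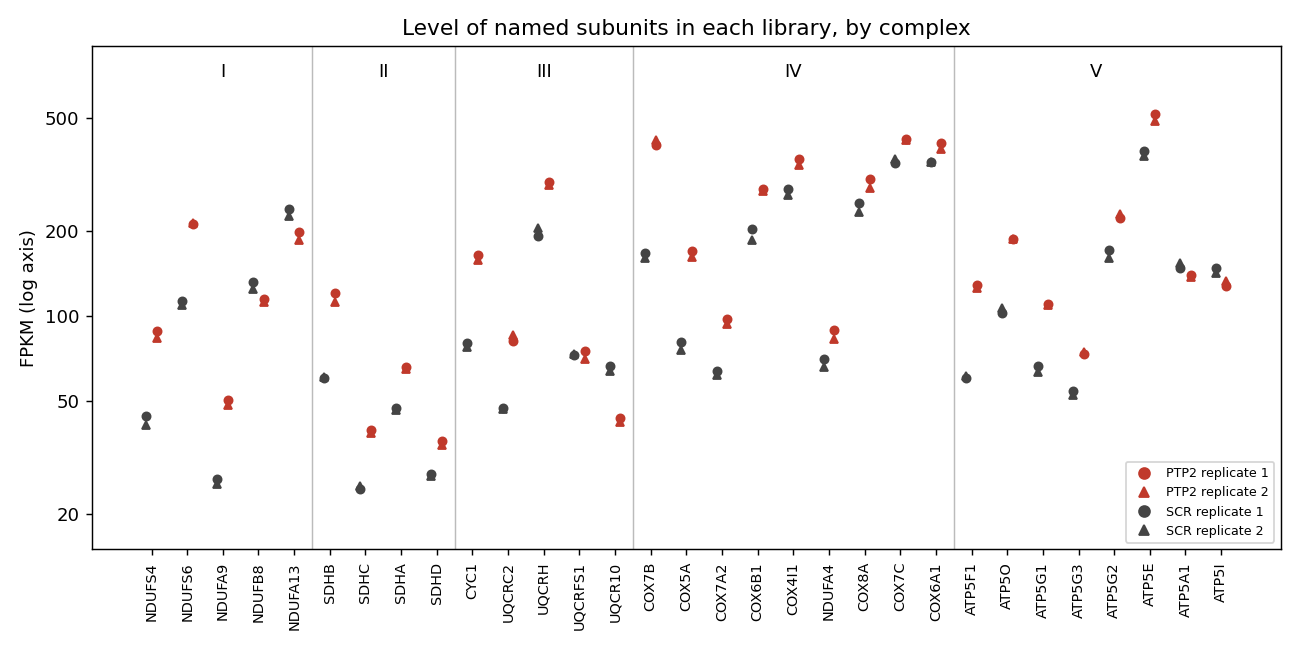
FPKM of named subunits in each library on a log axis, with red symbols for PTP2 and dark symbols for SCR, circles for replicate 1 and triangles for replicate 2. The replicates of a group lie close together, and the groups are separate for every gene shown except UQCRFS1, with NDUFB8, NDUFA13, UQCR10, ATP5A1 and ATP5I lower in PTP2.

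Complex III, the cytochrome bc1 complex, spanned the widest range of log2 fold changes. Of its 10 members, 5 rose, 1 fell and 4 were not called. The 50% that rose lie near the 47.1% of all genes with a mean of at least 10 FPKM. The median log2 fold change was 0.15, or 0.10 without UQCRHL, a copy of UQCRH that stood at 0.58 to 1.32 FPKM. Its 2 nuclear-encoded catalytic subunits lay at different places in this range. CYC1, cytochrome c1, had 165 and 158 FPKM in PTP2 and 80.5 and 77.7 FPKM in SCR, a log2 fold change of 1.02 (SE 0.04, limma adjusted p = 0.000458). UQCRFS1, the Rieske iron-sulfur protein, had 75 and 70.5 FPKM in PTP2 and 73.1 and 73.6 FPKM in SCR, so that the groups overlapped, at -0.01 (SE 0.04, limma adjusted p = 0.841).

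Among the other subunits of complex III, UQCRC2, a core protein, had 81.8 and 86.0 FPKM in PTP2 and 47.3 and 46.8 FPKM in SCR (log2 fold change 0.82, SE 0.04, limma adjusted p = 0.00058). UQCRC1, the other core protein, was called higher at 0.10 only, with an adjusted p of 0.0495 (limma), and was not called without any 1 library. UQCRH, the hinge protein at cytochrome c1, was the most abundant subunit of the complex, with 297 and 290 FPKM in PTP2 and 192 and 204 FPKM in SCR (0.56, SE 0.04, limma adjusted p = 0.00158). UQCR10, a small membrane subunit, had 43.6 and 42.3 FPKM in PTP2 and 66.7 and 64.0 FPKM in SCR. It was the one subunit of the chain that fell by at least 1.5-fold, at -0.59 (SE 0.04, limma adjusted p = 0.00109), and it was called lower in every fit that left out 1 library. UQCRB rose by 0.27 but was not called with length and GC trends removed, at 0.09, while UQCRQ and UQCR11 were not called.

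Complex IV, cytochrome c oxidase, had 10 of 16 tested members called higher and 0 lower, with a median log2 fold change of 0.27. At an unadjusted p under 0.05 (limma) 0 members were lower as well, and the fit with length and GC trends removed called 3 lower. Leaving out PTP2 replicate 1, PTP2 replicate 2, SCR replicate 1 or SCR replicate 2 left 4, 7, 6 and 6 called higher. The 11 widely expressed subunits, at 62.9 to 353 FPKM in SCR, had a median of 0.35 and all but COX5B rose. COX7B, a small subunit needed for assembly, had 401 and 417 FPKM in PTP2 and 168 and 160 FPKM in SCR, the largest change of all subunits at 1.31 (SE 0.04, limma adjusted p = 0.000357), a 2.49-fold rise. COX5A, which sits beside COX4, had 169 and 161 FPKM in PTP2 and 81.3 and 76.1 FPKM in SCR, at 1.06 (SE 0.05, limma adjusted p = 0.000617). COX5B, a zinc-binding subunit on the matrix side, had 214 and 200 FPKM in PTP2 and 204 and 213 FPKM in SCR, at -0.01 with overlapping groups.

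The isoforms that are restricted to some tissues stayed near 0, in contrast to their widely expressed partners. COX4I1 stood at 359 and 341 FPKM in PTP2 and 281 and 268 FPKM in SCR, and COX4I2, the lung isoform, was listed at 0.09 FPKM in 1 PTP2 library and at 0 in the other 3 libraries. COX6A2 of heart and muscle and COX7B2 of testis were also above 0 in that library only, each at a value worth about 1 read. COX6B2 of testis reached no more than 0.54 FPKM and COX7A1 of heart and muscle no more than 0.23 FPKM. Of the 5 tested, 0 were called (limma), 0 passed an unadjusted p of 0.05, and no fold is given for them. Single fits called COX6A2 or COX7B2 higher without PTP2 replicate 2, COX6B2 higher with the replicate block and COX7B2 lower with length and GC trends removed. COX7A2 had 97.5 and 93.8 FPKM in PTP2 and 64.1 and 61.7 FPKM in SCR (log2 fold change 0.60, SE 0.04, limma adjusted p = 0.00112). COX7A2L, a related protein that joins complexes III and IV, rose by 0.29 (SE 0.03, limma adjusted p = 0.00339), which was not called with length and GC trends removed. The share of COX7A2 in the summed FPKM of COX7A1, COX7A2 and COX7A2L was 53.2% and 52.8% in PTP2 and 48.0% and 47.3% in SCR.

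The rest of the widely expressed complex IV subunits rose by smaller amounts. COX7C, the most abundant, had 423 and 419 FPKM in PTP2 and 347 and 360 FPKM in SCR, at 0.25 (SE 0.03, limma adjusted p = 0.00635). COX6A1 rose by 0.18, COX8A by 0.28, NDUFA4, now counted with complex IV, by 0.33, COX4I1 by 0.35 and COX6B1 by 0.53. COX4I1, COX8A and NDUFA4 were called in 0, COX6A1 in 1 and COX7C and COX6B1 in 2 of the 4 fits that left out 1 library. With length and GC trends removed, COX7C and COX6A1 were called lower, at -0.14 and -0.17. NDUFA4L2, a hypoxia-responsive relative of NDUFA4, fell at low level, from 0.92 and 1.09 FPKM in SCR to 0.36 and 0.45 FPKM in PTP2 (log2 fold change -0.51, SE 0.06, limma adjusted p = 0.00485), which is about 20.3 and 22.3 reads against 7.4 and 9.2 reads. It was called in 1 of the 4 fits that left out 1 library, the one without SCR replicate 1.

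Complex V had 13 of 15 members called higher and 2 lower, with a median log2 fold change of 0.46. Leaving out PTP2 replicate 1, PTP2 replicate 2, SCR replicate 1 or SCR replicate 2 left 6, 7, 10 and 9 called higher and 0 lower. In the catalytic F1 part, ATP5B, the beta subunit with the catalytic sites, had 377 and 376 FPKM in PTP2 and 246 and 250 FPKM in SCR, at 0.60 (SE 0.03, limma adjusted p = 0.000611). ATP5A1, the alpha subunit that alternates with it in the ring, had 139 and 138 FPKM in PTP2 and 148 and 153 FPKM in SCR, at -0.12 (SE 0.03, limma adjusted p = 0.0442). ATP5A1 was not called when any 1 library was left out, with the replicate block or with a pseudocount of 0.1. ATP5C1 of the central stalk rose by 0.72 and was called in 2 of the 4 fits that left out 1 library. ATP5E, the small epsilon subunit and the most abundant member of the chain, had 516 and 490 FPKM in PTP2 and 384 and 367 FPKM in SCR, at 0.42 (SE 0.05, limma adjusted p = 0.00355). It was not called without SCR replicate 2 or with length and GC trends removed.

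All 4 peripheral stalk subunits were called higher, and ATP5F1 and ATP5O kept the call in every fit that left out 1 library. ATP5F1 (ATP5PB), the b subunit, had 128 and 125 FPKM in PTP2 and 60.5 and 61.2 FPKM in SCR, at 1.05 (SE 0.03, limma adjusted p = 0.000336). ATP5O (ATP5PO), which ties the stalk to F1, had 187 FPKM in both PTP2 libraries and 102 and 107 FPKM in SCR, at 0.84 (SE 0.04, limma adjusted p = 0.000516). The remaining stalk subunits, ATP5J and ATP5H, rose by 0.26 and 0.14, and both calls were lost without any 1 library. ATP5H was called lower with length and GC trends removed, at -0.15 (limma adjusted p = 0.0172).

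ATP5G1, ATP5G2 and ATP5G3 encode the same mature c subunit of the rotor ring with different import sequences, and all rose. ATP5G1 had 110 and 109 FPKM in PTP2 and 66.4 and 63.6 FPKM in SCR (log2 fold change 0.75, SE 0.04, limma adjusted p = 0.000616). ATP5G2 had 222 and 228 FPKM in PTP2 and 171 and 160 FPKM in SCR, at 0.44, and was not called without PTP2 replicate 1 or 2. ATP5G3 had 73.6 and 74.9 FPKM in PTP2 and 54.4 and 52.7 FPKM in SCR, at 0.46. The share of ATP5G1 in their summed FPKM was 27.1% and 26.5% in PTP2 and 22.7% and 23.0% in SCR, while ATP5G2 gave the largest share in every library. Of the small membrane subunits, ATP5J2 and ATP5L rose by 0.61 and 0.60, and each was called in 2 of the 4 fits that left out 1 library. ATP5I, which takes part in dimer formation, had 128 and 133 FPKM in PTP2 and 148 and 141 FPKM in SCR, at -0.15 (SE 0.04, limma adjusted p = 0.0458), a call that did not hold without any 1 library, with the replicate block or with a pseudocount of 0.1.

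Summed over subunits, every complex was higher in PTP2, with no overlap between libraries. The ratio of the mean sums, PTP2 over SCR, was 1.21 for complex I, 1.60 for complex II, 1.27 for complex III, 1.35 for complex IV and 1.37 for complex V. Total FPKM was also higher in PTP2, and as shares of the total the ratios for complexes I to V were 1.16, 1.54, 1.22, 1.30 and 1.31. All members together took 2.36% and 2.34% of the total FPKM in PTP2 and 1.91% and 1.86% in SCR. The order of the complexes by their median was not tested, since members of a complex are not replicates, and it changed with the pseudocount. With 0.1 added, complex IV, at 0.50, passed complex V, at 0.47. Complex IV as counted here includes 5 tissue-restricted isoforms at no more than 0.54 FPKM. In the main fit its 11 widely expressed subunits had a median of 0.35, below the 0.46 of complex V. The part of the low isoforms in the change of order was not tested.

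**Figure D3:**
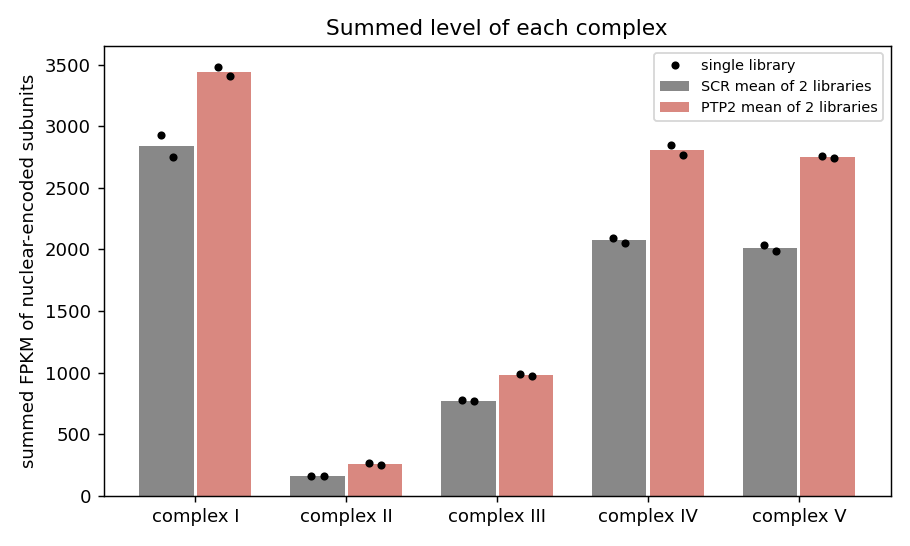
Summed FPKM of the nuclear-encoded subunits of each complex, with bars for the mean of the 2 libraries of a group and dots for single libraries. The PTP2 sums exceed the SCR sums in all 5 complexes, from a ratio of 1.21 in complex I to 1.60 in complex II.

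Of the names taken by the rule, 7 are no subunits of a complex, and 3 of them rose, 1 fell and 3 were not called. Besides COX7A2L and NDUFA4L2, ATP5SL, an assembly protein of complex I, rose by 0.44, and the read-through transcript NDUFC2-KCTD14 rose by 0.32, from 0.09 and 0.19 FPKM in SCR to 0.50 and 0.34 FPKM in PTP2. These values rest on about 4.2 and 8.2 reads against 21.6 and 14.7 reads, and the call was lost without any 1 library. ATP5SL kept its call in 2 of these 4 fits. ATP5S, ATP5L2 and the read-through transcript ATP5J2-PTCD1 were not called. Of all members, 11 had a mean under 10 FPKM, and of these 1 rose, 1 fell and 9 were not called.

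Many members had short transcripts, and 45 of the 88 were under 1000 bases. Their median length was 985.5 bases, with NDUFA5 the longest subunit at 5776 bases, against 2793 bases for all genes with a mean of at least 10 FPKM. Of the 402 genes at that level with under 1000 bases, 231 were called higher and 81 lower, with a median log2 fold change of 0.25, and of the 5855 longer ones 2717 and 1900, with a median of 0.10. With the trend of each library on length and GC content removed, 46 members were called higher and 18 lower, where 31.9% and 35.8% of all genes were, and the median of the members was 0.19. Of the members, 44 were called higher with and without this step, 6 lower with and without it, and NDUFB1, COX7C, COX6A1 and ATP5H, 4 in all, turned from higher to lower. The medians were 0.19, 0.45, 0.05, 0.15 and 0.34 for complexes I to V. UQCRFS1 was called lower in that fit, at -0.24.

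Reads that could come from other copies limit some values. The GENCODE 29 annotation holds pseudogenes named after 44 of the 88 members, up to 17 for COX6C, and how reads with several matches were counted was not given in the sources used here. Of the 44 members without such a pseudogene, 23 were called higher and 4 lower. Of the 44 with one, 37 were called higher, while NDUFB8 and ATP5A1 were called lower. Over all genes tested, 30.8% were called higher and 27.1% lower. These groups of members also differ in level. All 11 members with a mean under 10 FPKM lack such a pseudogene, and of these 1 rose and 1 fell. The part of pseudogene reads in the calls was not tested. ATP5F1 has 7 such pseudogenes and COX7B 1, while CYC1, UQCR10, NDUFS4 and SDHB have 0. The other subunits of complex II have such pseudogenes, 3 for SDHA, 4 for SDHC and 3 for SDHD. The members lay on 22 chromosomes, with at most 12 on chromosome 19.

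Other genes of the pathway were counted from lists by function, and their shares are set beside the 30.8% of all genes and the 47.1% of genes with a mean of at least 10 FPKM that were called higher, and the 27.1% and 31.7% called lower. Of 51 assembly factors, 26 rose (51.0%) and 7 fell (13.7%), with a median log2 fold change of 0.25, a share of rises near that of the genes with at least 10 FPKM. NDUFAF2, which helps to build complex I, had 57.4 and 57.0 FPKM in PTP2 and 19.4 and 20.02 FPKM in SCR, at 1.49 (SE 0.03, limma adjusted p = 0.000242). UQCC2, needed for cytochrome b and hence for complex III, had 8.25 and 8.23 FPKM in PTP2 and 20.1 and 19.7 FPKM in SCR, at -1.18 (SE 0.03, limma adjusted p = 0.000285). Of 15 genes of electron carriers, 8 rose (53.3%) and 3 fell (20%), with a median of 0.18. CYCS, cytochrome c, had 44.2 and 43.4 FPKM in PTP2 and 29.7 and 29.6 FPKM in SCR, at 0.55, and among the genes of ubiquinone synthesis COQ3 rose by 1.26 and COQ8A fell by 0.77, calls that were lost without PTP2 replicate 1 and without SCR replicate 2, in that order.

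Of 24 genes of the tricarboxylic acid cycle and pyruvate entry, 12 rose (50%) and 6 fell (25%), with a median of 0.18, shares near those of the genes with at least 10 FPKM. DLAT, of the pyruvate dehydrogenase complex, rose by 0.77, and PDK3, a kinase that inhibits this complex, fell by 0.85. Of 14 general mitochondrial genes, 10 rose (71.4%) and 2 fell (14.3%), with a median of 0.39, among them HSPD1, the matrix chaperonin, at 0.86 and SLC25A6, an ADP/ATP carrier, at -0.75. Of 19 regulators of respiratory chain genes and mitochondrial DNA, 12 rose (63.2%) and 3 fell (15.8%), with a median of 0.30. GABPB1, the partner of GABPA, had 17.3 and 18.8 FPKM in PTP2 and 8.5 and 7.67 FPKM in SCR, at 1.07 (SE 0.07, limma adjusted p = 0.00111). TFAM, which packages mitochondrial DNA, rose by 0.55. GABPA rose by 0.30 and NRF1 by 0.34, and neither was called without PTP2 replicate 1 or 2. YY1, the third factor whose letters were searched, was called lower, at -0.19 (limma adjusted p = 0.0399). It had 34.8 and 36.5 FPKM in PTP2 and 39.5 and 42.3 FPKM in SCR. PPARGC1A, a coactivator of mitochondrial genes, fell from 0.87 FPKM in both SCR libraries to 0.34 and 0.37 FPKM in PTP2, at -0.46 (limma adjusted p = 0.00107). PPARGC1B and PPRC1, of the same coactivator family, were called higher, each at 0.47 (limma adjusted p = 0.00211 and 0.00207). PPARGC1B was also low, at 0.56 and 0.60 FPKM in PTP2 and 0.11 and 0.17 FPKM in SCR. The mitochondrially encoded subunits were not analysed here.

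The same counts were made for 3 other groups of abundant genes. Of 78 mitochondrial ribosomal proteins 56 rose and 5 fell, with a median of 0.39, of 90 tested cytosolic ribosomal proteins 73 rose and 2 fell, with a median of 0.52, and of 38 tested proteasome subunits 34 rose and 3 fell, with a median of 0.52. Each of these medians was above the 0.31 of the respiratory chain members.

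**Figure D4:**
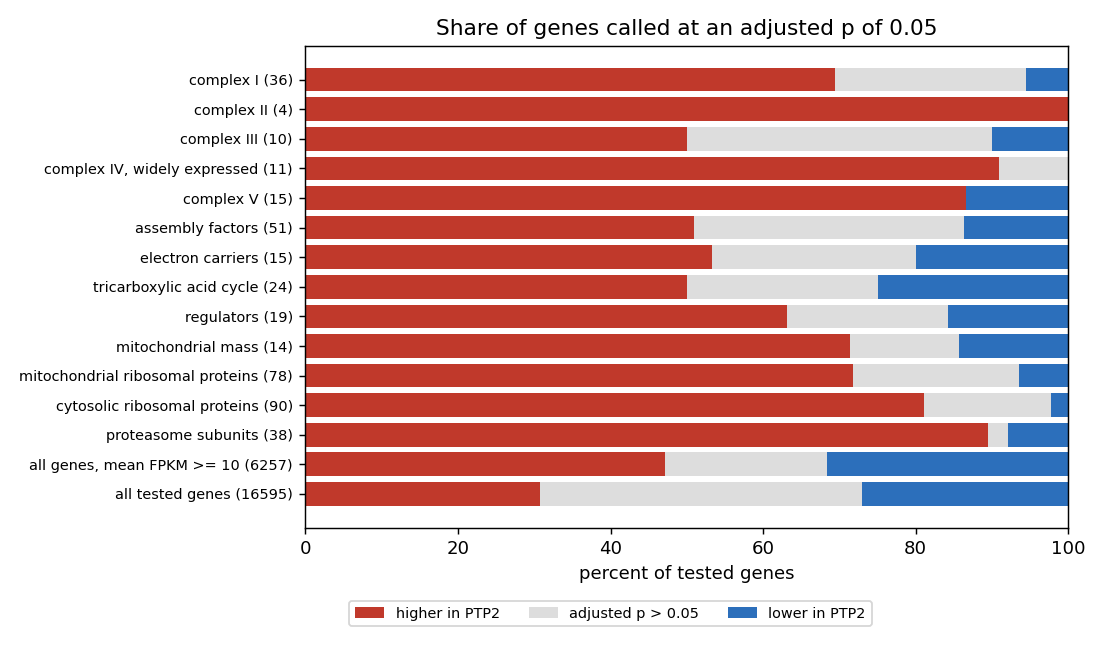
Percent of tested genes called higher (red), called lower (blue) or not called (grey) at an adjusted p of 0.05 in each complex, list and background, with the number of genes in brackets. All groups of the chain and the ribosomal and proteasome groups hold larger red shares than the 30.8% of all tested genes. Among genes with a mean of at least 10 FPKM the red share is 47.1%. Complex III at 50%, the tricarboxylic acid cycle genes at 50% and the assembly factors at 51.0% lie near it.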

How the data were processed

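U87 RNA was sequenced on a BGISEQ-500 with reads of 50 bases from 1 end. FPKM values per gene and library were deposited by the authors in 2 tables that did not differ in any of 66380 values, and no read counts were used here. The submitters' processing notes name HISAT2 2.1.0 and the build hg19, but the gene positions in the table are those of GRCh38. The counting program, annotation and strand were not given in the sources used here. Columns with the authors' own comparisons (fold changes and their p-values or false discovery rates) were not used. Depth was estimated from the steps between low FPKM values of genes with 1 transcript.

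On the log2(FPKM + 1) scale, limma 3.58.1 in R 4.3.3 fitted 1 term, the group, to the 16595 genes with any value above 0, with Benjamini-Hochberg adjustment over all of them, since only FPKM values were available. The added 1 understates the change of low genes. In simulated data of 16595 genes, 100 were changed by 1 on the log2 scale and 100 by 0.5. The noise was normal, with the spread of genes of like expression. Of these genes 100% and 70% were called at 0.05, and 0.006% of unchanged genes were. In the data 57.9% of genes were called, so the simulated rates do not give the share of false calls there. Shared replicate numbers were checked by the correlation of deviations from the group means, and they were not taken as pairs (closing section). Alternatives were a pseudocount of 0.1, a minimum of 1 FPKM in 2 libraries, the replicate block, quantile, median-ratio and TPM scaling, an eBayes trend, removal of length and GC trends and leaving out each library.

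The genes and lists were chosen with earlier results of these data known. Genes described were PTPRN, the subunits of complex II, CYC1 and UQCRFS1, in each other complex up to 3 largest rises and 3 largest falls among called members with a mean of at least 10 FPKM and the most abundant member, the isoform sets, 5 regulators and carriers, and the largest rise and fall of each list. Further genes were picked for naming once their values had been seen. Gene identity rests on symbols, some of them older ones. The values of 1 subunit of complex I are not reported here, though it enters the counts and medians.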

Additional observations from a re-analysis of the deposited data

How the results depend on the processing

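Of 629 values of 53 named genes under the alternatives, 558 kept their call or lack of one, 64 lost the call and 4 gained it. The other 3 were called with the opposite sign, all with length and GC trends removed: COX7C at -0.14, COX6A1 at -0.17 and COX7B2 at -0.26. Values not called could change sign and count as kept. UQCRFS1, at -0.01 in the main fit, ranged from -0.056 to 0.032 with 1 library left out. Of the members, 23 were called higher in all 13 fits. Leaving out 1 library gave 3275 to 3375 of all genes called higher and 2884 to 2957 lower, and among the members 35 to 39 higher and 1 to 2 lower. By complex these fits gave 12 to 15 higher and 0 to 1 lower in complex I, 4 to 7 higher in complex IV, and 6 to 10 higher and 0 lower in complex V, with medians of 0.24 to 0.36 (I), 0.070 to 0.18 (III) and 0.26 to 0.29 (IV). These fits had fewer samples. With length and GC trends removed, 18 members were lower (8 in complex I, 2 in III, 3 in IV), 6 of complex IV were higher, and the medians of complexes I to V were 0.19, 0.45, 0.054, 0.15 and 0.34. With a pseudocount of 0.1, 3 members were lower (1 in complex I, 0 in V), and the medians of III, IV and V were 0.19, 0.50 and 0.47. With the minimum FPKM, 1 member of complex V was lower and the medians of III and IV were 0.10 and 0.35. The medians of I to V under quantile scaling were 0.22, 0.48, 0.087, 0.20 and 0.38, under median-ratio scaling 0.51 (II), 0.22 (IV) and 0.42 (V), and on the TPM scale 0.23 (I), 0.50 (II) and 0.41 (V). The cause of these shifts was not tested. The count of 4 members at the stricter thresholds was 0 with a pseudocount of 0.1, with the block and without any 1 library, and 1 with quantile scaling and with length and GC trends removed.

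The replicate numbers of the 2 groups showed a correlation of deviations of 0.0635 over 11272 genes, and they were not taken as pairs. With 2 libraries per group, this value cannot exclude that libraries of the same number were handled together. With the replicate block, 55 members were higher and 4 lower, 4888 of all genes higher and 4251 lower, and 0 members of complex V lower. At 18000000 to 19400000 reads, members under 0.1 FPKM rest on about 1 read, and nothing can be said of their change.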

Other observations

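Subunits and a regulator of the chain that carry other names were read beside the members, chosen after their values were seen. NDUFAB1, the acyl carrier protein of complex I, had 69.2 and 72.0 FPKM in PTP2 and 35.7 and 37.3 FPKM in SCR, a log2 fold change of 0.93 (limma adjusted p = 0.000538). USMG5, a small subunit of complex V, had 210 and 191 FPKM in PTP2 and 164 and 150 FPKM in SCR, at 0.35 (limma adjusted p = 0.0208). C14orf2, another small subunit of complex V, overlapped between groups at -0.04. ATPIF1, the inhibitor of ATP hydrolysis by complex V, had 177 and 172 FPKM in PTP2 and 120 and 111 FPKM in SCR, at 0.60 (limma adjusted p = 0.00198).

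The read-through transcript ATP5J2-PTCD1 was listed at 1.20 and 1.71 FPKM in PTP2 and at 1.88 FPKM and 0 in SCR. The value of 1.88 FPKM is worth about 200.5 reads at the estimated depth, while ATP5J2, whose exons it shares, had 224 and 204 FPKM in the same 2 libraries.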
